A study of Mus musculus with 8 samples.

Results

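The 10 genes described here move calcium in and out of intracellular stores and were followed in splenic conventional dendritic cells: the ryanodine receptors Ryr1 and Ryr3, the inositol trisphosphate receptors Itpr1, Itpr2 and Itpr3, the store sensors Stim1 and Stim2, the plasma membrane channel Orai1, and the store pumps Atp2a2 and Atp2a3. They were chosen by gene symbol, as all probe sets named for the 10 genes, because Ryr3 was among the genes that most distinguished CD8α- from CD8α+ cells in these same arrays. Of the 10 genes, 9 were matched by 26 probe sets (groups of short oligonucleotides that report 1 transcript), out of 18193 genes in all, and 8 of them, with 16 probe sets, were bright enough to test. Itpr1 was matched by no probe set's name and was not analysed here. The data are 8 Affymetrix mouse arrays of biotin-labelled total RNA in 4 groups of 2. The groups were CD8α- and CD8α+ dendritic cells sorted from spleens of wild type C57BL/6 mice and of C57BL/6 mice with the RAG2-/- genotype, which cannot assemble antigen receptor genes and so lack mature T and B lymphocytes. All mice were untreated females, 10 weeks old per the labels (8 to 10 weeks in the series text), and the question of the series was how lymphocytes bear on these antigen-presenting cells. The labels number the replicates without saying that they came from separate mice, and whether spleens were pooled is not given in the sources used here, so p-values may measure technical spread.

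In most cells the endoplasmic reticulum is the main calcium store. The pumps of the SERCA family, encoded by the Atp2a genes, load it, and inositol trisphosphate receptors and ryanodine receptors open it in response to inositol trisphosphate or to calcium itself. When the store empties, the STIM proteins in its membrane sense the loss and open ORAI channels at the cell surface, a process called store-operated calcium entry. In dendritic cells such signals follow chemokine, Fc and pattern recognition receptors, and ryanodine receptor 1 has been described in dendritic cells, while ryanodine receptor 3 is best known from brain and muscle.

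Levels are log2 expression values as the authors deposited them, so that a difference of 1 is a doubling, and are given per array as replicate 1 and replicate 2 or as mean ± SD (n = 2). Levels of different probe sets cannot be ranked against each other, because each probe set has its own affinity. A value below log2 5 was taken as near background, and a fold against a group that was below 5 on each array was computed against 5 and written as at least. In bulk RNA, fewer cells that carry a transcript and less of it per cell cannot be told apart.

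The arrays carried the labelled subsets. Cd8a was 11.73 and 11.94 in wild type CD8α+ cells against 5.80 and 6.10 in CD8α- cells, and 12.31 and 12.51 against 6.90 and 7.70 in the knockout. All 10 conventional dendritic cell markers were at or above log2 5 on an array of each group. Rag1 and Rag2 lay between 2.23 and 3.63 on the 8 arrays and so did not check the genotype, but B cell markers summed to log2 10.39 to 11.40 on wild type arrays and 7.70 to 8.74 on knockout arrays. Neutrophil markers summed to log2 13.03 on knockout CD8α- replicate 2 and 11.60 on knockout CD8α+ replicate 1, against 5.94 to 6.70 on the other 6 arrays. The knockout arrays share one lowest value, 2.23, which between 18217 and 18893 probe sets held on each of them, while each wild type array had its own lowest value, on 1 probe set. The submitters' processing notes name GCRMA for all arrays and the affy package for the wild type arrays only. With lowest values that differ in this way, genotype and processing cannot be told apart in the comparisons of genotypes. Identical values on both arrays of a group, within a tolerance of 1e-06, were also commoner in the knockout (3.64% and 3.43% of 8763 genes) than in wild type (0.708% and 0.719%), so some replicate SDs of 0 there understate the spread.

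**Figure D1:**
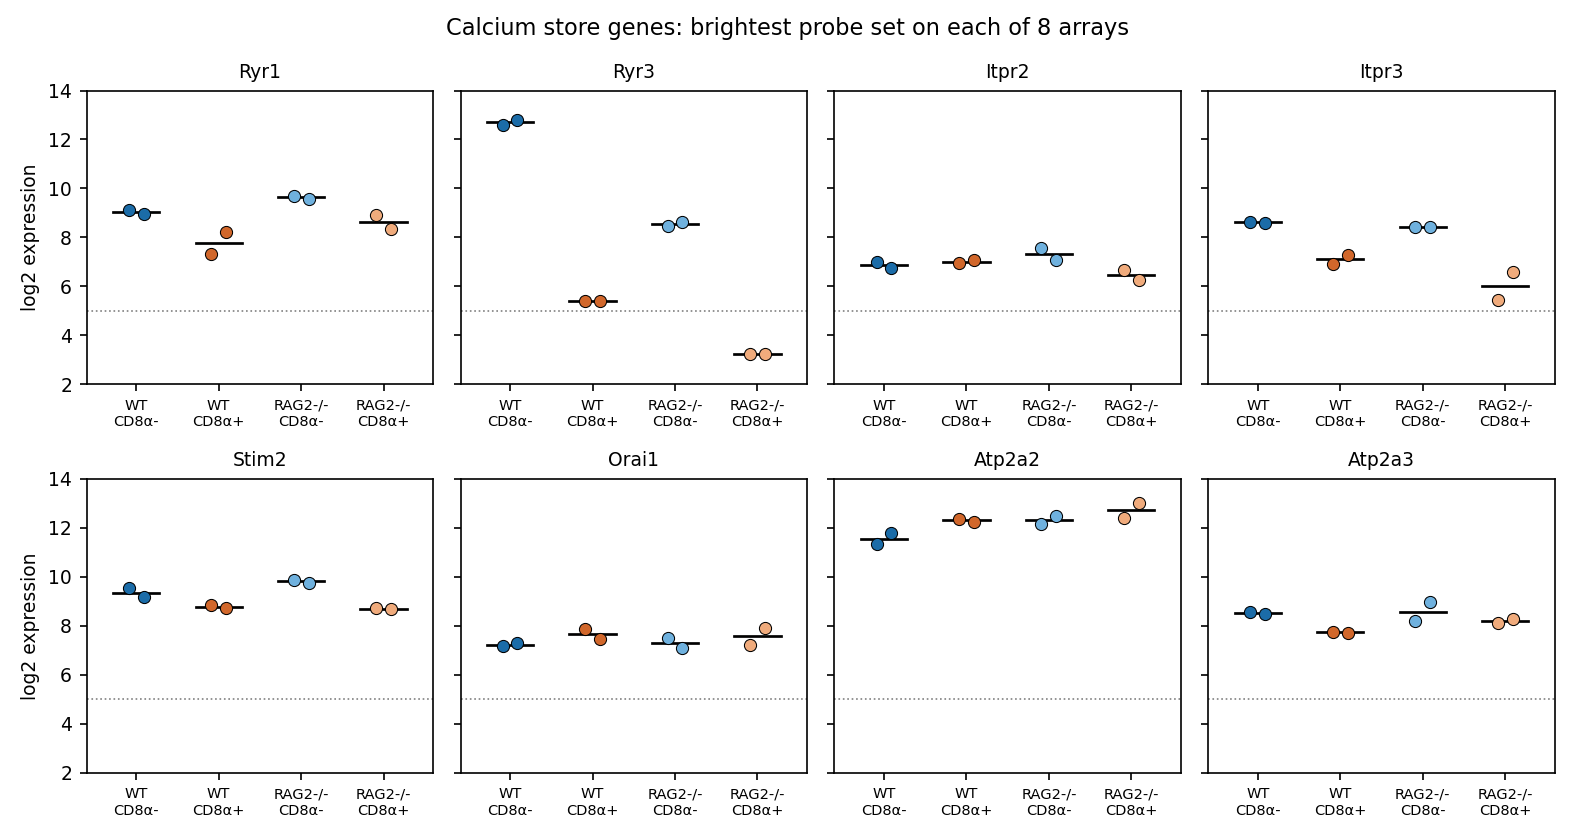
Log2 expression (vertical axis) of the brightest probe set of each of the 8 genes tested. Each point is 1 array, black bars are means of 2 arrays, and the dotted line is log2 5. Ryr3 spans from 12.81 in wild type CD8α- cells to 3.23 in knockout CD8α+ cells, while Orai1 stays between 7.08 and 7.92.

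Ryr3, an intracellular calcium release channel, was the gene that brought the family into view, and its levels between the subsets are therefore a description without a test. Its brightest probe set, 1427427_at, read 12.60 and 12.81 in wild type CD8α- cells, against 5.40 and 5.41 in wild type CD8α+ cells. That is a difference of 157-fold, and of the 8763 genes it was the most negative CD8α+ minus CD8α- difference. In the knockout the same probe set read 8.45 and 8.63 in CD8α- cells, against 3.23 on both CD8α+ arrays, at least 11.6-fold lower in CD8α+ cells. This was the 29th most negative difference. The order of the groups was thus wild type CD8α-, knockout CD8α-, wild type CD8α+ and knockout CD8α+, and no neighbours in this order overlapped.

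The other Ryr3 probe sets also read highest in wild type CD8α- cells but did not separate the knockout subsets. Probe set 1432133_at gave 7.78 and 8.29 in wild type CD8α- cells, against 5.25 and 4.76 in wild type CD8α+ cells, an 8.15-fold difference. In the knockout it gave 5.84 and 5.14 in CD8α- cells, against 5.14 and 5.15 in CD8α+ cells, which overlap, with the same value on CD8α- replicate 2 and CD8α+ replicate 1. Probe set 1452533_at gave 6.22 and 6.14 in wild type CD8α- cells but at most 2.80 on each of the other 6 arrays. The subset difference of Ryr3 in the knockout therefore rests on 1 of its 3 probe sets, the brightest. Over the mean of the 3 probe sets, the CD8α+ minus CD8α- difference was -4.84 in wild type and -1.88 in the knockout.

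**Figure D2:**
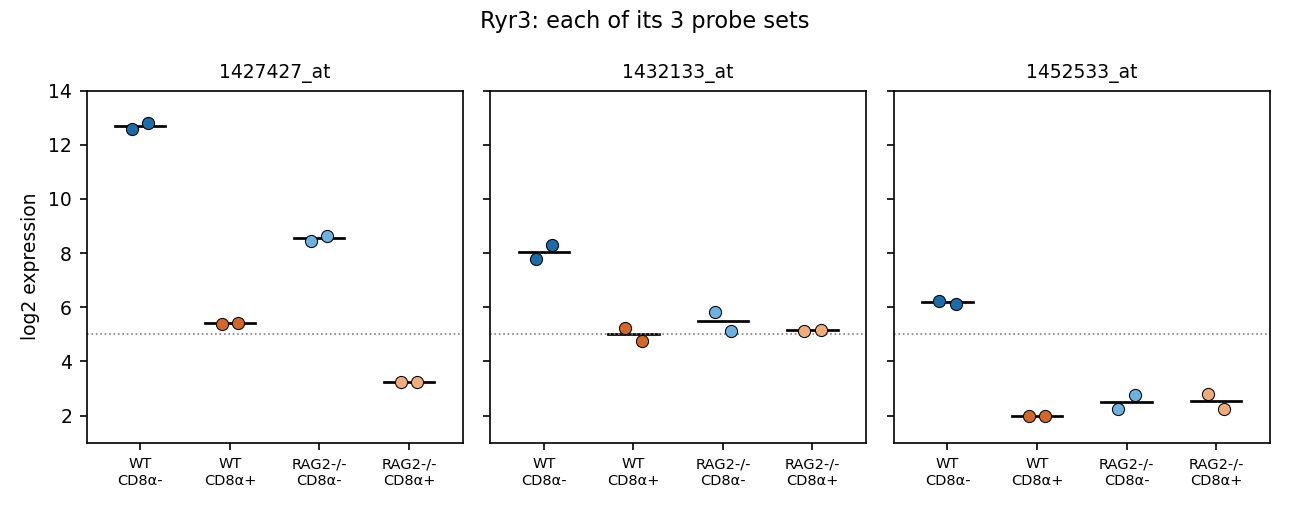
Log2 expression of Ryr3 on each of its 3 probe sets (panels), with 1 point per array, black bars for means of 2 arrays and a dotted line at log2 5. All 3 are highest in wild type CD8α- cells, and the knockout subsets are apart on 1427427_at only.

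Ryr3 was lower in knockout than in wild type CD8α- cells on all 3 probe sets. This too is a description without a test, because the wild type arrays in it are among those on which Ryr3 was picked as high. The difference was -4.16 on the brightest probe set, a 17.9-fold lower level, and -2.55 on 1432133_at, 5.84-fold. On 1452533_at it was -3.67, at least 2.26-fold, but that probe set was kept only through the wild type CD8α- arrays, the only ones on which it reached 5, so its direction was set by the filter. Without the pair of knockout arrays with neutrophil transcripts, the brightest probe set differed by -4.25. Of the 8763 genes, 40.5% were called in this comparison, and of the 7 members other than Ryr3, 0 were called by limma. At an unadjusted p under 0.05, which at least those 40.5% of all genes also had, there were 2, Stim2 and Atp2a2. The limma-trend fit called 1, Atp2a2, and 3624 of the 8763 genes. Nothing is read from these members.

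Markers of other cell types moved with the same comparison. Of 8 named B cell markers, 5 reached log2 5 on an array of wild type CD8α- cells, against 2 in knockout CD8α- cells, with Cd79a, Pax5 and Fcer2a below 5 in both. The summed B cell level was log2 10.82 to 11.40 in wild type CD8α- cells and 8.16 to 8.74 in knockout CD8α- cells. In wild type CD8α+ cells, where Ryr3 was at 5.40 ± 0.01, that sum was 10.39 to 11.34, which overlaps the CD8α- range. Macrophage markers ran the other way, with 4 of 10 at or above 5 in wild type CD8α- cells (summed log2 12.28 to 12.62) and 9 of 10 in knockout CD8α- cells (13.57 to 13.73), and Marco below 5 in both. The 10 markers of CD8α- dendritic cells summed to 13.76 to 13.94 in wild type and 14.77 to 14.90 in knockout CD8α- cells, with 9 of 10 at or above 5 in both and Itgam below it. The 9 named markers of CD8α+ dendritic cells, in which Ryr3 is low, summed to 12.25 to 12.64 in wild type and 13.06 to 14.01 in knockout CD8α- cells. Of these 9, 8 reached 5 in both, and Xcr1 was below 5 in both. The sum includes Batf3, at 11.23 and 11.03 in wild type CD8α- and 11.46 and 11.78 in wild type CD8α+ cells. It is thus no measure of CD8α+ cells alone. In knockout CD8α- cells 4 of the 9 were called higher and 0 lower, beside 23.4% and 17.1% of all genes. Of the 9 CD8α- dendritic cell markers tested, 4 were called higher and 1 lower, and of 8 macrophage markers tested, 8 and 0. Of 9 muscle markers, 8 were below 5 on all 8 arrays, Acta1 and Ckm among them. The other, Tnnt2, read 6.34 and 6.25 in wild type CD8α- cells, against 4.21 and 2.80 in the knockout, and was kept only through wild type arrays. The part of these transcripts in the Ryr3 result was not tested.

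In CD8α+ cells Ryr3 was already low, and its levels there are likewise described without a test. Its brightest probe set differed by -2.18 between wild type and knockout, from 5.40 ± 0.01 to 3.23 on both arrays, which against log2 5 is at least 1.32-fold. With values below 5 set to 5 the difference was -0.40, and over the mean of the probe sets -0.49. The other probe sets differed by 0.14 and 0.56. Among the 7 other members 0 were called by limma, where 36.9% of all genes were. At an unadjusted p under 0.05, which at least those 36.9% of all genes also had, there were 2, Ryr1 and Itpr3. The limma-trend fit called 1, Itpr3, and 3358 of the 8763 genes. Nothing is read from these members.

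By the rule for likeness, the 5 genes outside the family whose levels over the 8 arrays correlated best with Ryr3 were Cntln, a centriole protein gene (r = 0.996), Cdh17, which encodes liver-intestine cadherin (0.994), Spats2 (0.991), Smarca2, a chromatin remodelling ATPase (0.989), and Ap1s2, a subunit of a clathrin adaptor (0.986). These correlations over 8 arrays are a description, since the arrays share 4 groups and the best of 8755 genes were taken. Cdh17 read 8.21 and 7.88 in wild type CD8α- cells, against 5.72 and 5.31 in their knockout counterparts and at most 4.22 in both CD8α+ groups. It thus had the same order of groups as Ryr3.

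Ryr1, the ryanodine receptor of skeletal muscle that dendritic cells also express, was lower in CD8α+ cells, by far less than Ryr3. Its testable probe set read 9.11 and 8.95 in wild type CD8α- cells, against 7.31 and 8.21 in wild type CD8α+ cells. In the knockout it read 9.70 and 9.58 in CD8α- cells, against 8.93 and 8.34 in CD8α+ cells. The arrays of the subsets did not overlap in either genotype. The wild type difference was -1.27 (SE 0.33, adjusted p = 0.0381), 2.41-fold, and the knockout difference was -1.0 (SE 0.33, adjusted p = 0.0699) and was not called. The wild type call was lost without CD8α- replicate 1 (-1.19, adjusted p = 0.186), CD8α- replicate 2 (-1.35, 0.139), CD8α+ replicate 1 (-0.82, 0.148), or either knockout CD8α- array (-1.27, 0.0570). It was also lost with the replicate number as a block (0.0586), with the wild type groups fitted alone or without the pair of arrays with neutrophil transcripts (0.0791 each), and with no filter (0.163). Between the genotypes Ryr1 differed by 0.61 in CD8α- cells (adjusted p = 0.175) and 0.88 in CD8α+ cells (adjusted p = 0.0725). The other Ryr1 probe set stayed between 2.12 and 2.23.

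Among the inositol trisphosphate receptors, Itpr3 had the clearest subset difference. It read 8.64 and 8.59 in wild type CD8α- cells, against 6.90 and 7.30 in wild type CD8α+ cells, and 8.43 on both CD8α- arrays and 5.43 and 6.60 in CD8α+ cells of the knockout. The CD8α- arrays were above the CD8α+ arrays in both genotypes. Itpr3 fell in CD8α+ cells by 1.51 in wild type (SE 0.36, adjusted p = 0.0288, 2.85-fold) and by 2.42 in the knockout (SE 0.36, adjusted p = 0.00378, 5.35-fold). The identical values on the knockout CD8α- arrays give that group an SD of 0. The shared SE of Itpr3, and the p-values that rest on it, may thus understate the spread. Without any 1 of the 4 wild type arrays in turn, the wild type call was lost, as it was with no filter (log2 changes from -1.71 to -1.31, adjusted p from 0.0897 to 0.149). The knockout call was lost only when the knockout groups were fitted alone (adjusted p = 0.0651). The genotypes differed by -0.18 in CD8α- cells (adjusted p = 0.713) and by -1.09 in CD8α+ cells (adjusted p = 0.0519), neither of them called, and the value in CD8α+ cells was -1.67 (adjusted p = 0.0110) without knockout CD8α+ replicate 2 and -0.50 (0.165) without replicate 1. Without the pair of arrays with neutrophil transcripts, the knockout subset difference was -1.83 (adjusted p = 0.0246).

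Itpr2, another receptor of this family, overlapped between the wild type subsets, at 6.97 and 6.73 in CD8α- cells, against 6.96 and 7.07 in CD8α+ cells. In the knockout its brightest probe set read 7.55 and 7.06 in CD8α- cells, against 6.65 and 6.28 in CD8α+ cells, which do not overlap. That difference was -0.84 (SE 0.23, adjusted p = 0.0426). It passed the threshold under 7 of the 19 other settings and was lost, among others, without knockout CD8α- replicate 1 (-0.60, 0.174), CD8α+ replicate 1 (-1.03, 0.0645), CD8α+ replicate 2 (-0.66, 0.169) or any wild type array (-0.84, 0.0713 to 0.0740). The dimmer probe set, 1424834_s_at, differed by -0.68 in the knockout (adjusted p = 0.0577, where 17.6% of all probe sets were called). It rose in knockout CD8α- cells against wild type by 0.67 (SE 0.20, adjusted p = 0.0364), in a fit of single probe sets that called 37.6% of them, while the brightest differed by 0.45 (adjusted p = 0.163). The 4 other Itpr2 probe sets stayed between 2.23 and 4.94 and were not tested.

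The store sensor gene Stim2 was lower in CD8α+ cells of the knockout. It read 9.89 and 9.77 in knockout CD8α- cells against 8.74 and 8.68 in knockout CD8α+ cells, and 9.53 and 9.18 against 8.85 and 8.73 in wild type. The subsets did not overlap in either genotype. In the knockout Stim2 fell by 1.12 (SE 0.19, adjusted p = 0.00584, 2.18-fold). The wild type difference was -0.57 (SE 0.19, adjusted p = 0.0843). The knockout call was lost only without the pair of arrays with neutrophil transcripts (-1.21, adjusted p = 0.0530). Its dimmer probe set, 1441024_at, lay between 4.61 and 5.54 and was not called in any comparison. On 3 of the knockout arrays it held the same value, 4.97. Stim1, the other sensor, read between 2.64 and 3.41 on both of its probe sets and was not tested, so these arrays give only an upper bound on its level.

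Over the 7 members tested apart from Ryr3, 2 were called between the wild type subsets (Ryr1 and Itpr3) and 3 between the knockout subsets (Itpr2, Itpr3 and Stim2), all of them lower in CD8α+ cells. Among all genes 17.1% were called in wild type (7.87% lower) and 21.8% in the knockout (10.7% lower). Arrays of the subsets did not overlap for 60.7% (wild type) or 58.1% (knockout) of all genes, and those of the genotypes for 74.4% in CD8α- and 72.1% in CD8α+ cells. Nothing is read from these counts, because the family was chosen on a difference between the subsets. The median of the 7 differences was -0.57 in wild type and -0.84 in the knockout, beside 0.01 and 0.02 over all genes.

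**Figure D3:**
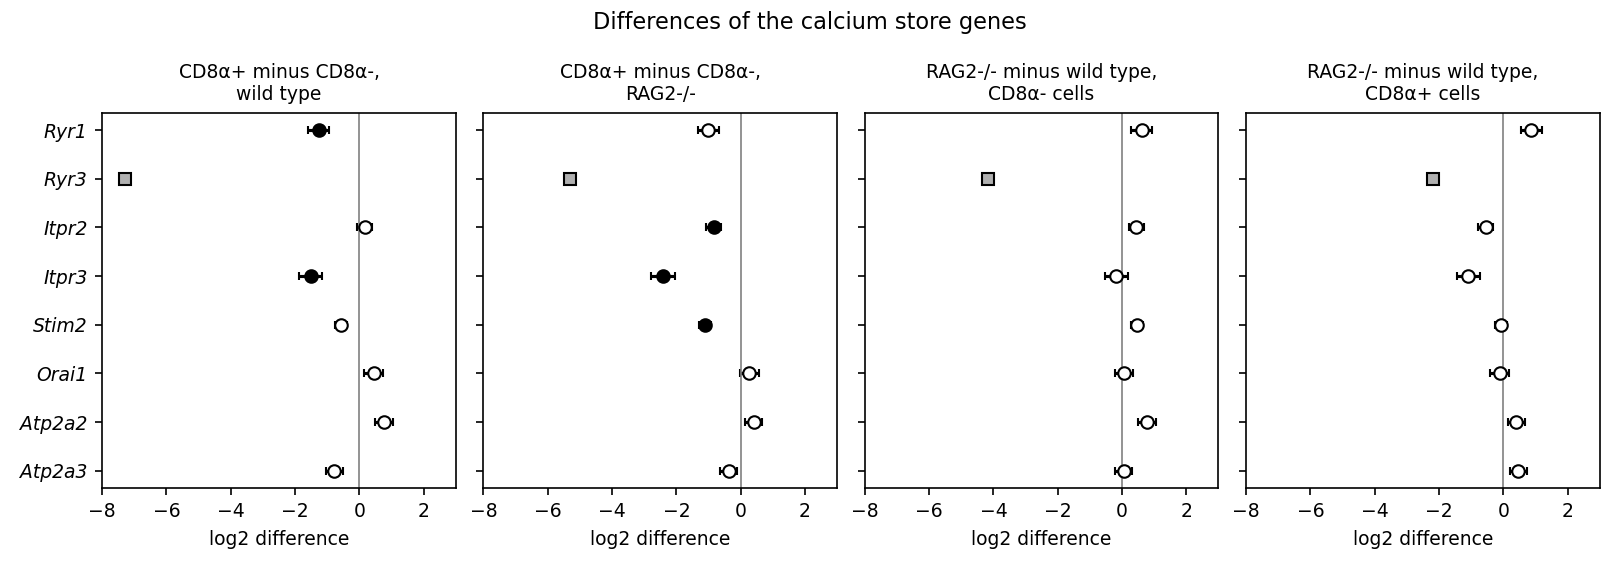
Log2 differences (horizontal axis) of the 8 genes in 4 comparisons, with bars of 1 standard error from the fit. Black points passed an adjusted p of 0.05, white points did not, and grey squares are Ryr3, which is shown without a test. Itpr3 lies left of 0 in both subset comparisons, at -1.51 and -2.42, and no black point stands between the genotypes.

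The promoters of the 3 genes below are shown because, of the members with a sequence, these had CD8α- arrays above CD8α+ arrays in both genotypes and a call in at least 1. No promoter sequence was given for Ryr3, Atp2a2 or Itpr1. RefSeq promoter sequences (GRCm38.p6, 250 bases before to 50 after the start) were given for 7 of the 10 genes. Capitals mark matches, on either strand, to 6 motifs: the core site of the Notch effector RBPJ (TGGGAA), an ETS-IRF composite (GGAA and GAAA with 2 bases of any kind between), AP-1 (TGANTCA), NFAT (GGAAAA), the GC box (GGGCGG) and the TATA box (TATAAA). The composite and NFAT motifs can overlap each other. The sequences run 5′ to 3′ on the strand of the gene, at chr7:29125102-29125401 (minus strand) for Ryr1, chr17:27057054-27057353 (plus strand) for Itpr3 and chr5:53998273-53998572 (plus strand) for Stim2.
Ryr1: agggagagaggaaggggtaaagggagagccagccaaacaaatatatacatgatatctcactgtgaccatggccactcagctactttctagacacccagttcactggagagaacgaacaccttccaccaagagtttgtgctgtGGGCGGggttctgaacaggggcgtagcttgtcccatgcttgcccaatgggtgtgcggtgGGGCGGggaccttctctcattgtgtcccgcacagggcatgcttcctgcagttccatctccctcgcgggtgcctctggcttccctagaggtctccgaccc
Itpr3: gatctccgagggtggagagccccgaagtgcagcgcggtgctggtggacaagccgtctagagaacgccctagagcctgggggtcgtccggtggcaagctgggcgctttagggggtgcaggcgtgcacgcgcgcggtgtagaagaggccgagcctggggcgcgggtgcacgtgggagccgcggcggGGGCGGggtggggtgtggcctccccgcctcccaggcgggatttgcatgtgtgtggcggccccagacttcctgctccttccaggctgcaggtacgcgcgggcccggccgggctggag
Stim2: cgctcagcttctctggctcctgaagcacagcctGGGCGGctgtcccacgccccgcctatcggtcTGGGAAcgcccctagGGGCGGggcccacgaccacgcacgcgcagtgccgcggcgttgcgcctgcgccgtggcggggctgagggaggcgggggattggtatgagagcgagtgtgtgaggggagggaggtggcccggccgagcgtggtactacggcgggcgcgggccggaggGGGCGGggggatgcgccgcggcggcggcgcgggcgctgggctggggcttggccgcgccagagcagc

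Of the 6 motifs, the GC box was found in all 7 promoters, with 2 matches in Ryr1, 1 in Itpr3 and 3 in Stim2, and 35.7% of the 32851 promoters in the table hold it. The RBPJ core was found once, in Stim2, as in 25.6% of all promoters. No match to the composite (2.72% of all promoters), AP-1 (7.81%), NFAT (23.4%) or TATA motif (13.6%) was found in the 7 windows, which says only that these letters are not there. The Ryr1 window had a GC content of 56.7% and 9 CG pairs, against 72.3% and 30 for Itpr3 and 76.7% and 39 for Stim2. The 7 windows ran from 56.7% to 78.7% GC, above the median of 52.7% over all promoters. The shares of promoters with a motif were not adjusted for this, so the GC box matches are not read as enrichment.

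Orai1, the pore of store-operated entry, gave a different picture on each of its 2 probe sets. The brighter, 1424989_at, read 7.19 and 7.28 in wild type CD8α- cells, against 7.87 and 7.48 in CD8α+ cells of that genotype. Its knockout levels were 7.51 and 7.08 in the CD8α- subset, against 7.21 and 7.92 in the CD8α+ subset. No comparison was called on it, with adjusted p from 0.377 to 0.961. The dimmer, 1424990_at, read 4.54 and 4.92, 6.01 and 5.97, 6.33 and 6.65, and 7.26 and 6.79 in those groups in the same order, without overlap between any of them. It rose in wild type CD8α+ cells by 1.27 (SE 0.24, adjusted p = 0.0155, at least 1.99-fold), where 14.1% of probe sets were called, and in the knockout by 1.76 in CD8α- cells (SE 0.24, adjusted p = 0.00284, at least 2.81-fold) and 1.03 in CD8α+ cells (SE 0.24, adjusted p = 0.0179), where 37.6% and 35.8% were. Over the mean of both, Orai1 was higher by 0.85 in wild type CD8α+ cells (adjusted p = 0.0145) and by 0.91 in knockout CD8α- cells (adjusted p = 0.00786). The 2 probe sets thus disagree, and no direction is given for the gene.

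The pump gene Atp2a2, which encodes SERCA2, was bright on all arrays. Its brightest probe set read 11.33 and 11.77 in wild type CD8α- cells, against 12.38 and 12.26 in CD8α+ cells of that genotype. Its knockout levels were 12.14 and 12.51 in the CD8α- subset, against 12.42 and 13.04 in the CD8α+ subset. Wild type CD8α- cells were below the other groups without overlap. The differences from wild type CD8α- cells were 0.77 to wild type CD8α+ cells (SE 0.27, adjusted p = 0.107) and 0.77 to knockout CD8α- cells (SE 0.27, adjusted p = 0.0581), and neither passed. The latter passed in 5 of the 19 other settings, namely median centring (1.43, 0.00456), limma-trend (0.0318), the replicate block (0.0391) and without either knockout CD8α+ array (0.0428). Probe set 1452363_a_at rose in the knockout by 1.41 in CD8α- cells (SE 0.31, adjusted p = 0.0141) and 1.05 in CD8α+ cells (SE 0.31, adjusted p = 0.0390), while 1416551_at differed by 0.01 and -0.35 (adjusted p = 0.987 and 0.433). The 4 tested Atp2a2 probe sets thus did not give one answer on the genotype.

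Atp2a3, which encodes SERCA3, the pump of blood cells and some epithelia, read 8.55 and 8.48 in wild type CD8α- cells, against 7.73 on both wild type CD8α+ arrays. In the knockout it read 8.18 and 8.96 in CD8α- cells, against 8.13 and 8.27 in CD8α+ cells, which overlap. The wild type difference of -0.78 (SE 0.26) had an adjusted p of 0.0877 and was not called, and it passed under 5 of the 19 other settings, among them without either knockout CD8α- array (0.0213). No other comparison of Atp2a3 was called. Its other probe set stayed between 2.23 and 2.81.

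**Figure D4:**
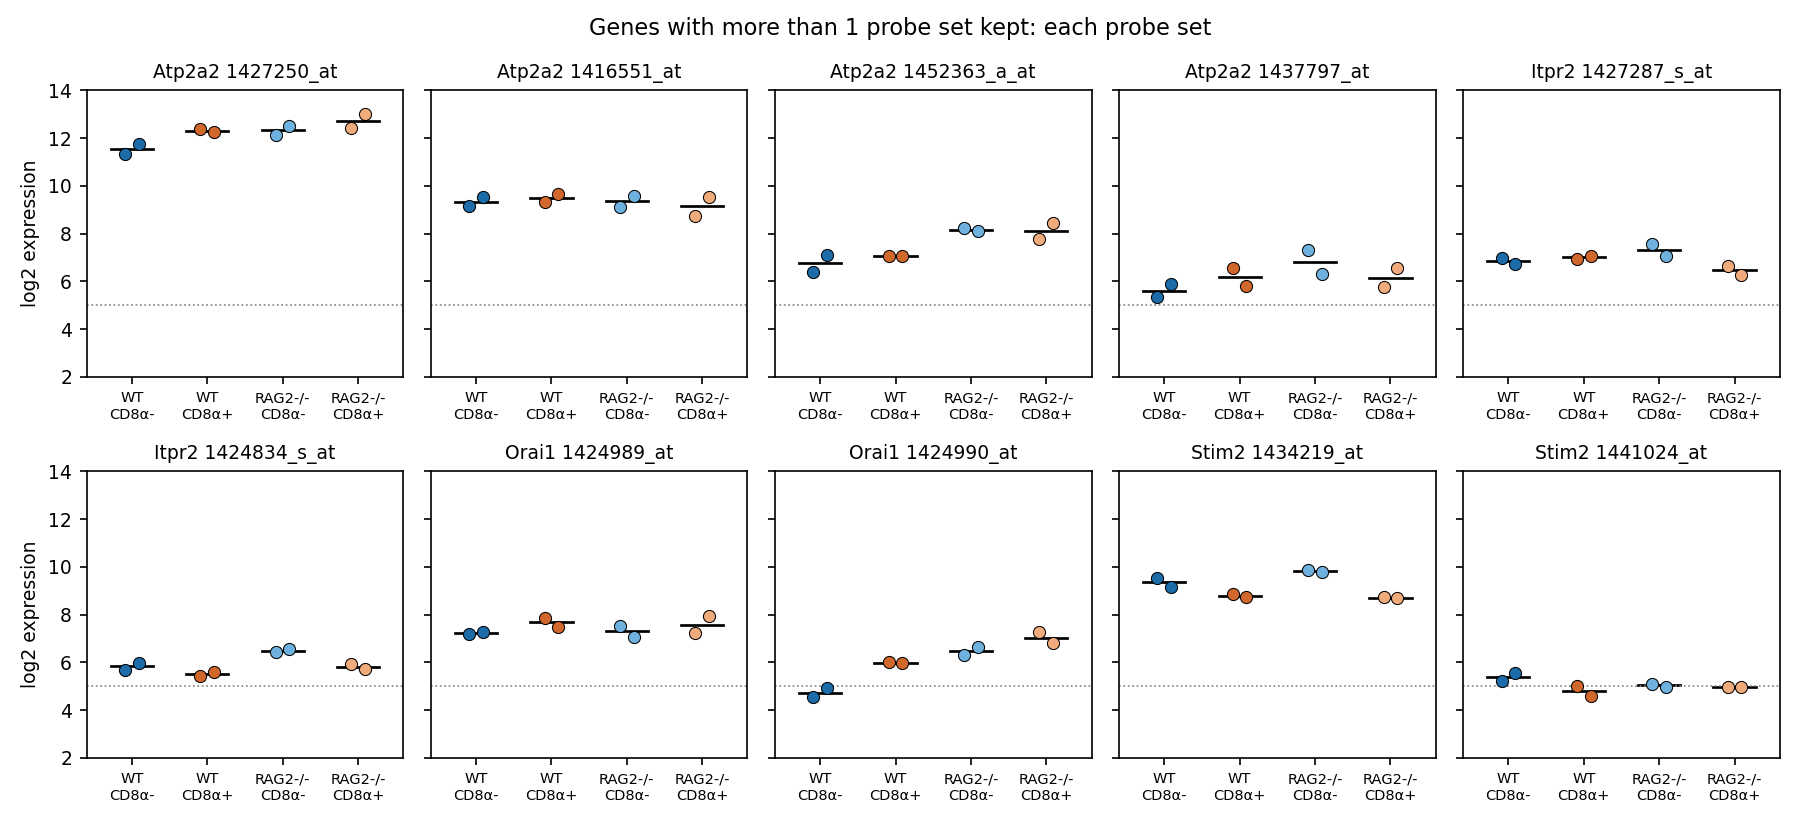
Log2 expression on each tested probe set of Atp2a2, Itpr2, Orai1 and Stim2 (panels), with 1 point per array, black bars for means of 2 arrays and a dotted line at log2 5. Orai1 is flat on 1424989_at and steps up from 4.54 to 7.26 on 1424990_at.

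No member's genotype difference was shown to depend on the subset. In the interaction, taken as the genotype difference of CD8α+ cells minus that of CD8α- cells, 0 of the 7 members tested were called by limma, where 0.240% of all genes were, and 0 by limma-trend with robust eBayes. Over all genes that limma-trend fit called 11. Among the 7 members 1, Itpr2, had an unadjusted p under 0.05 in the limma fit (-1.0, SE 0.33, adjusted p = 0.521). The share of all genes at that threshold was not counted, so nothing is read from it. Ryr3 was not tested here, since this term holds the wild type difference that chose it. Its value was 1.98 on the brightest probe set (3.76 with values below 5 set to 5) and 2.69 on 1432133_at. On 1452533_at it was 4.23, but that probe set was kept only through the wild type CD8α- arrays. The filter thus set the direction of that value, and nothing is read from it.

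How arrays are scaled matters for the genotype comparisons. As deposited, the median gene was higher in the knockout by 0.14 in CD8α- cells, against 0.09 in CD8α+ cells. With each array centred on its median over all probe sets, those shifts were 0.81 and 0.77, and 4 of the 7 members other than Ryr3 were called in each subset, all higher, in place of 0. Over all genes that centring called 5343 in CD8α- cells and 5143 in CD8α+ cells, against 3548 and 3230 as deposited, so nothing is read from the 4. Under it 90.3% and 91.0% of all calls were higher, against 57.7% and 56.4% as deposited. Ryr3 in CD8α- cells was at -3.50 with this centring and at -4.30 after quantile normalization.

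Other genes of calcium handling were read from 7 lists of 148 genes, of which 78 were bright enough to test. In wild type 16 of the 78 were higher and 3 lower in CD8α+ cells, and in the knockout 15 and 6. These lists were written with results of these data known. They are set beside 9.23% of all genes higher and 7.87% lower in wild type, and 11.1% higher and 10.7% lower in the knockout. The median differences of the 78 genes were 0.17 and 0.07. In the sentences on these lists, a number alone in parentheses is an adjusted p.

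Among enzymes that make or remove calcium-mobilizing messengers, 4 of 14 were higher in wild type CD8α+ cells and 0 lower. Bst1, an ectoenzyme that can form cyclic ADP-ribose, a ligand of ryanodine receptors, read 7.79 and 7.03 in wild type CD8α+ cells, against 2.16 and 2.05 in CD8α- cells, a level at least 5.32-fold higher. It was kept only through the CD8α+ arrays, so its direction was set by the filter. Nothing is therefore read from its subset difference being opposite to that of Ryr3. Plce1 and Plcb4 are phospholipase genes whose products release inositol trisphosphate. In wild type CD8α+ cells Plce1 was higher by at least 7.78-fold and Plcb4 by 13.9-fold (adjusted p = 0.00159 for Plcb4). Outside the CD8α+ groups Plce1 reached log2 5 on 1 array only, knockout CD8α- replicate 2, at 5.20. Like Bst1, Plce1 was thus kept only through the CD8α+ arrays. Its direction was set by the filter, and its levels are described without a test. In the knockout, Bst1 was at least 5.67-fold higher, Plce1 30.5-fold and Plcb4 15.2-fold, and 4 were higher and 1 lower of the 14. Bst1 and Plce1 are among the genes counted here and over all the lists, although the filter set their direction.

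Among partners of store-operated entry and other calcium-permeable channels, 3 of 11 were higher and 1 was lower in wild type CD8α+ cells, and 2 and 1 in the knockout. Trpm2, a channel opened by ADP-ribose, rose by 2.31 (SE 0.27, adjusted p = 0.00146) in wild type and by 2.12 in the knockout (0.00199). Stimate, a promoter of STIM1 activation, fell by 1.33 (SE 0.26, adjusted p = 0.0125) and by 1.56 (0.00579). P2rx7, the channel gated by extracellular ATP, rose by 1.75 (0.00237) and by 0.87 (0.0360). Modulators of the release channels gave 2 higher and 1 lower of 14 in wild type, against 3 and 1 in the knockout. Itprip, whose product binds inositol trisphosphate receptors, fell by 1.13 (0.0332) and by 1.33 (0.0159), and Fkbp1b, a ryanodine receptor stabilizer, rose by 1.73 in wild type (0.0172).

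Of the other pumps and exchangers, Slc8b1, the mitochondrial sodium-calcium exchanger, was the only 1 of 10 called in wild type, at 3.99 higher in CD8α+ cells (SE 0.57, adjusted p = 0.00357, 15.9-fold). It was higher by 5.14 in the knockout (0.00109), where 2 of 10 were higher and 1 lower. Tpcn1, another of the 10, reached log2 5 only on the knockout CD8α- arrays (5.65 and 5.31). The filter thus set the direction of its knockout subset difference. Store-lumen chaperones and calcium-binding proteins gave 4 higher and 0 lower of 13 in wild type, against 2 and 0 in the knockout, led by Nucb2, at 2.58 (0.00149) and 1.49 (0.0136). Calmodulin, calcineurin and NFAT pathway genes gave 1 higher and 1 lower of 14 in wild type, against 1 and 2 in the knockout, with the kinase gene Camk1d at 1.55 (0.00661) and 1.57 (0.00573). Of 18 voltage-gated channel genes 2 were bright enough to test, and Cacna1e rose by 2.33 in wild type CD8α+ cells (0.0188).

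Between the genotypes, 21 of the 78 genes were higher and 5 lower in knockout CD8α- cells, and 18 and 6 in knockout CD8α+ cells, beside 23.4% higher and 17.1% lower, and 20.8% and 16.1%, of all genes. The 78 include Plcl1 and Inpp5a, kept only through wild type arrays, and Tpcn1, kept only through the knockout CD8α- arrays. The filter thus set the direction of Plcl1 and Inpp5a between the genotypes, and that of Tpcn1 in CD8α- cells. Nothing is read from these counts. P2rx7 rose by 2.46 (SE 0.23, adjusted p = 0.000769) in CD8α- cells and by 1.57 (0.00325) in CD8α+ cells, and Orai3, a relative of Orai1, by 1.29 (0.0469) and 2.0 (0.0114). The Golgi calcium pump gene Atp2c1 rose by 1.38 (0.00197) and 1.22 (0.00327), and Plcg2, the phospholipase of immunoreceptor signalling, by 1.51 (0.00310) and 1.71 (0.00238). Nfatc3, a calcium-responsive transcription factor gene, fell by 1.2 (0.00334) and by 1.29 (0.00300). None of the 78 was called in the interaction.

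**Figure D5:**
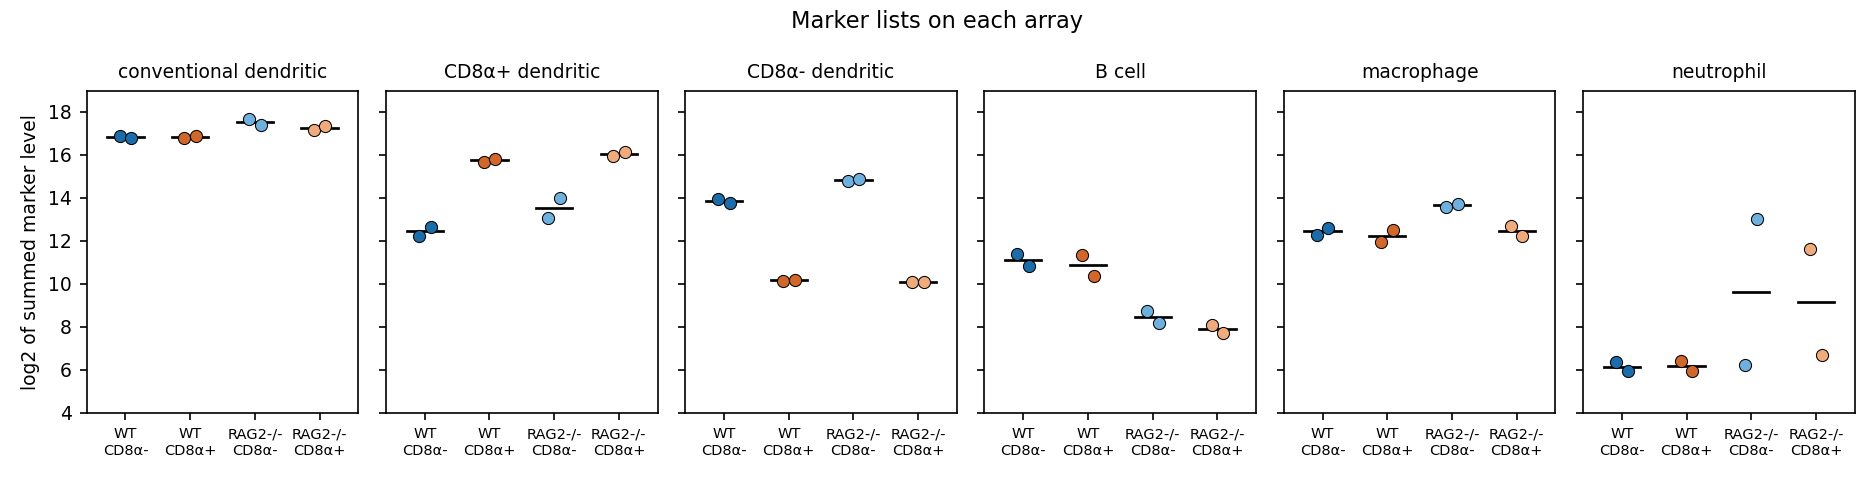
Log2 of the summed linear level of 6 marker lists (vertical axis) on each array, 1 point per array, with black bars for means of 2 arrays. B cell markers are lower on the knockout arrays (7.70 to 8.74) than on the wild type arrays (10.39 to 11.40), and neutrophil markers are high on 1 array of each knockout subset.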

How the data were processed

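Values are log2 expression per probe set, which the authors deposited after GCRMA (with the affy package for wild type), per the submitters' processing notes. Not given in the sources used here: software versions, probe annotation, and the set of arrays each normalization took in. Probe sets were named from the platform annotation, and those with several genes were left out. A probe set was kept at log2 5 or above on at least 2 of 8 arrays, and the one with the highest mean stood for its gene, leaving 8763 genes. All 4 groups were fitted with limma 3.58.1 in R 4.3.3 (lmFit and eBayes, 4 residual degrees of freedom), a call being a Benjamini-Hochberg adjusted p under 0.05 over all genes. A second fit held 14603 single probe sets. The number of arrays limits the precision. The fit was tested on simulated data. Named genes were the members, the 5 genes most like Ryr3 by Pearson correlation, and called genes of the lists. Members and lists were chosen with earlier results of these data known. Alternatives covered scaling, filter, floor, probe set summary, moderation, the groups fitted, a replicate block and each array left out. Leaving out both arrays with neutrophil transcripts was added after seeing the data.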

Additional observations from a re-analysis of the deposited data

How the results depend on the processing

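With 2 arrays a group, the calls of Ryr1 and Itpr3 between wild type subsets and of Itpr2 between knockout subsets sat near the threshold, with adjusted p from 0.0288 to 0.0426, and passed in 10, 14 and 7 of 19 alternatives. Counts of members between genotypes include Ryr3, which is the 1 called in each main fit and is no independent evidence there. The count of members called between wild type subsets (2) was 0 with no filter, where calls over all genes went from 1499 to 1039. The member count also fell without any 1 of the wild type arrays, and so did the calls over all genes. Between knockout subsets (3) the member count was 1 with the compared groups alone, where calls over all genes went from 1909 to 818. It was 2 with quantile normalization, no filter, limma-trend or each probe set on its own (1913, 1226, 2046 and 1670 over all genes). That count also fell with some of the arrays left out. In knockout against wild type CD8α- cells (1) it was 5 with median centring, 3 over the mean of probe sets, 2 with no filter, limma-trend or the compared groups alone, and 1 to 2 with 1 array left out. In CD8α+ cells (1) it was 5 with median centring, 2 with a filter at log2 7 or limma-trend, 0 with values below 5 set to 5 or the mean of probe sets, and 1 to 2 with 1 array left out. The interaction count was 0 in all alternatives. Stim2 between genotypes in CD8α+ cells turned from -0.08 to 0.59 with median centring (adjusted p = 0.0252). The causes were not tested. Calls over all genes moved as well, to 5343 in CD8α- and 5143 in CD8α+ cells with median centring, and to 10923 and 10678 with no filter. Over all genes, calls between genotypes ran from 1708 to 10923 in CD8α- cells (3548 in the report's fit) and from 1677 to 10678 in CD8α+ cells (3230).

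Same-numbered replicates shared little deviation (correlations from -0.146 to 0.112). This does not settle whether the numbers pair the arrays, and the main fit used no pairing. With the replicate number as a block, the member counts were 1 between wild type subsets, where the call of Ryr1 was lost, 2 in knockout against wild type CD8α- cells and 2 in CD8α+ cells.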
